A study of Drosophila melanogaster with 3 samples.

Results

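The 9 genes described here take part in, or control, the cap-dependent start of translation in *Drosophila melanogaster*. They are Lk6, eIF4EHP, eIF4E1, eIF4G1, eIF4A, eIF4B, Thor, eIF6 and pAbp, of 13945 protein-coding genes on the chromosome arms. They were chosen by pathway and by peak signal, since Lk6 and eIF4EHP were already known to hold very strong peaks of the protein CG12391. Their levels are therefore a description and carry no test. Every peak was taken whose summit lay in a gene body or within 2000 bp of it. That gave 22 of the 8522 peaks that passed a threshold on the irreproducible discovery rate (IDR), which is meant to keep peaks ranked alike by the replicates, and 58 of the 30000 peaks called on the pooled replicates.

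Binding was measured by chromatin immunoprecipitation with sequencing in whole embryos of both sexes, collected 0 to 24 h after egg laying. The embryos carried a transgene for CG12391 with enhanced GFP at its C terminus, and chromatin was pulled down with an antibody against GFP. The 3 biological replicates form 1 group, with no second genotype, stage or treatment. The tagged protein was read out in all tissues and stages of the collection at once, so a peak does not tell in which cells it arose, and the labels do not say whether the untagged gene was still present. Coordinates are on build dm6.

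Translation of most mRNAs starts when eIF4E1 binds the cap at the 5′ end and, with the scaffold eIF4G1 and the helicase eIF4A, forms the complex that recruits the small ribosomal subunit. Thor, the fly 4E-BP, competes with eIF4G1 for eIF4E1, and eIF4EHP binds the cap without binding eIF4G1, which the early embryo uses to silence maternal mRNAs such as caudal and hunchback. Lk6 is the fly kinase that phosphorylates eIF4E, and eIF6 keeps free large ribosomal subunits from joining small ones too early.

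The sequences at 6 summits are shown, from the very strong sites at Lk6 and eIF4EHP and from ordinary sites. The very strong site at eIF6 is not printed. All sequences are from the Release 6 genome, printed 5′ to 3′ on the strand of the named gene. They reach up to 100 bp to either side of the summit, with annotated UTRs cut away. Capitals mark matches on either strand to 6 motifs: TATCGATA (the site of DREF and BEAF-32), CGATA (a short BEAF-32 site, also found on both strands of every TATCGATA), GGTCACACT (the M1BP element), CATCNCTA (Motif 7), GAGAG (GAGA factor) and TATAAA (the TATA box). The strongest site, in the Lk6 intron, holds GAGAG matches at its edges and none of the other motifs. The eIF4EHP site has a pair of TATAAA matches in a long stretch of A and T. The site just past the end of eIF4E1, at the start of CG4080, holds TATCGATA and GGTCACACT, and the promoter of eIF4A holds TATCGATA and CATCNCTA. The Thor promoter holds a run of GAGAG followed by TATAAA. Both of these motifs thus occur at a very strong site and at an ordinary one.
Lk6 intron, chr3R:11760956-11761156, minus strand: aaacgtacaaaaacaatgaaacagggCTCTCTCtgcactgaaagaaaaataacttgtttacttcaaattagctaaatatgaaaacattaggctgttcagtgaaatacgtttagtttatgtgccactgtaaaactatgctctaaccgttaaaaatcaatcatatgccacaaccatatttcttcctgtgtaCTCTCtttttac
eIF4EHP promoter, chr3R:24109097-24109297, minus strand: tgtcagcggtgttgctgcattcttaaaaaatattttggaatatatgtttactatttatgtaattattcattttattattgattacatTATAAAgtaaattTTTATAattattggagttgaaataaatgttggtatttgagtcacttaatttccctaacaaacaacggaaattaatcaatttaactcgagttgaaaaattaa
eIF4E1 end and CG4080 promoter, chr3L:9399228-9399415, minus strand: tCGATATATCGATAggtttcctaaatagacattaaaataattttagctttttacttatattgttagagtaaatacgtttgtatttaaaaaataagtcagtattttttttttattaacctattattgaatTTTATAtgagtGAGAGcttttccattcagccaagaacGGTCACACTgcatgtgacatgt
eIF4E1 promoter, chr3L:9402461-9402565, minus strand: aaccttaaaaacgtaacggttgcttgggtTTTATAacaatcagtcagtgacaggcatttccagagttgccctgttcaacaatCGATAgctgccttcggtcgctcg
eIF4A promoter, chr2L:5981559-5981759, plus strand: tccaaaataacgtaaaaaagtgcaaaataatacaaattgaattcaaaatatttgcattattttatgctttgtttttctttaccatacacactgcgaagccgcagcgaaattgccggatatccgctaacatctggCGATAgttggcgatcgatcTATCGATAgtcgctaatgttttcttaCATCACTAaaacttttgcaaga
Thor promoter, chr2L:3478376-3478433, plus strand, upstream of the summit: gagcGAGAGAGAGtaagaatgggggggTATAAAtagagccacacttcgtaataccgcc

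Of the 9 genes 7 had an IDR-thresholded summit in the gene body or within 2000 bp, where 50.7% of all protein-coding genes did. The same 7 had such a summit within 500 bp of an annotated transcription start site (TSS) of their own, where 34.4% of all genes did. They were Lk6, eIF4EHP, eIF4E1, eIF4A, Thor, eIF6 and pAbp. In the pooled list, too, 7 of 9 had a summit in the stretch searched, against 68.1% of all genes. The lists of replicates 1, 2 and 3 each gave 7, against 70.7%, 69.6% and 71.5% of all genes. The genes without a peak in any list were eIF4G1 and eIF4B, both activators. The 9 genes also offered more sequence to search. The stretch searched had a median of 11.1 kb for the 9 genes and 6.17 kb for all genes, and within it the median number of IDR-thresholded summits per 10 kb was 2.7 for the 9 genes and 0.264 for all genes. Genes without a summit count as 0 here. Because only 50.7% of all genes have a summit, the median of all genes lies next to those zeros and understates the usual density.

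Signal was spread very unevenly over the 22 summits. The 3 strongest, at Lk6, eIF4EHP and eIF6, held 63.8% of their summed signal value, the authors' own measure of peak strength. Those 3 were within the 120 strongest of all 8522. That cut-off is the rank of the eIF6 peak itself, and Lk6 and eIF4EHP were chosen with their strong peaks known. For scale only, 1.71% of protein-coding genes have 1 of those 120 summits in the stretch searched. The fourth summit had a signal of 1025. The median over the 22 was 387, against 447 over all IDR-thresholded peaks, so that most summits of these genes were of ordinary height or below it. The IDR-thresholded list consists of the 8522 pooled peaks with the highest signal, at or above 227, and its highest signal was 9277.

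Replicates are compared by rank within a list or against the list's own median, because their signals are on different scales. Median signals of the 3 lists were 33.1, 65.3 and 32.6. Read numbers were not among the values used, so the depth behind each peak is unknown, and all lists were made from the same 3 alignments, which means that a replicate list is not independent of the pooled one. Of the 22 peaks 20 overlapped one of the 8522 strongest peaks of replicate 1, against 82.1% of all IDR-thresholded peaks. The counts were 19 in replicate 2 and 21 in replicate 3, against 89.4% and 87.9% of all peaks. Such an overlap, of 1 bp or more, was found in all 3 replicates for 16 of the 22, close to the 69.2% of all peaks. It does not require a shared summit. Where 50% of both intervals had to overlap, 9 of the 22 remained.

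**Figure D1:**
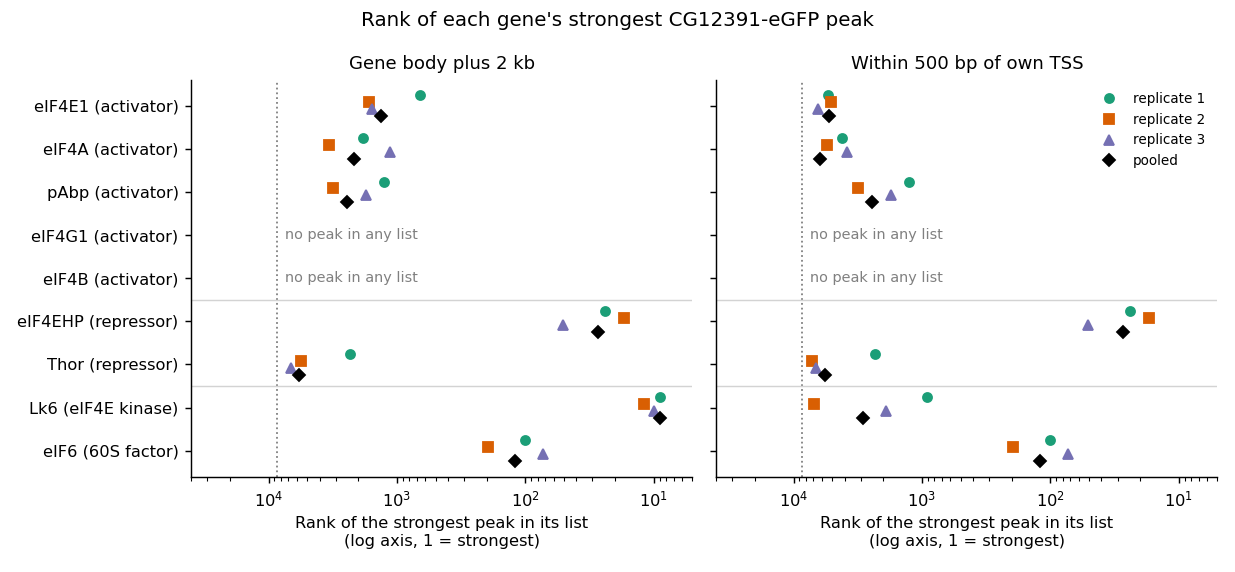
Rank (log axis, 1 = strongest) of the strongest peak of each gene in each replicate list and the pooled list, with genes grouped as activators, repressors and other roles. The left panel searches the gene body plus 2 kb and the right panel 500 bp around the gene's own TSSs, and the dotted line stands at rank 8522. Lk6 drops from rank 9 in the left panel to rank 2881 in the right panel in the pooled list, while eIF4EHP stays at rank 27.

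Lk6, the eIF4E kinase (FBgn0017581, chromosome 3R, 11750931 to 11764457, minus strand), had the strongest peak of the 9 genes. Its summit at 11761056 lies in an intron, 3401 bp downstream of the first TSS and 977 bp upstream of the internal TSS at 11760079. The signal was 6521 in the pooled list, rank 9. The replicates gave 1366, 3258 and 1894, at ranks 9, 12 and 10. All 3 replicates thus placed the site among their 12 strongest peaks, and their summits and the pooled one fell within 5 bp of each other. In units of each list's median the site stood 41.2, 49.9 and 58.0 times higher in replicates 1, 2 and 3.

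The promoter of Lk6 was much less occupied than its intron. The summit 108 bp upstream of the first TSS had a signal of 601, rank 2881. In the replicates it was 227, 163 and 197, at ranks 911, 6914 and 1910, so that replicate 2 gave it a far lower place than the other two did. The weakest IDR-thresholded summit, 1145 bp into the transcript from the internal TSS, had a signal of 265, rank 7397, with 55.6 in replicate 1 and 170 in replicate 2. It is near the lower edge of the list. Replicate 3 had no summit at this site, and its nearest, of signal 64.1, fell 220 bp away on a separate pooled peak of signal 188. The internal TSS itself had a pooled peak of signal 121 within 13 bp, below the IDR threshold. Over the whole stretch Lk6 had 11 pooled peaks, and the intronic site made up 76.3% of their summed signal.

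eIF4EHP, the cap-binding repressor (FBgn0053100, chromosome 3R, 24063077 to 24108960, minus strand), had its strongest peak at the promoter. The summit at 24109197 lies 237 bp upstream of its only annotated TSS and had a pooled signal of 5258, rank 27. The replicates gave 1013, 3123 and 1117, at ranks 24, 17 and 51. All 3 kept the site among their 51 strongest peaks, with summits within 10 bp of each other. The site is shared with a neighbour. CG18428 is transcribed away from eIF4EHP, with 375 bp between both TSSs, and the summit is nearer to the TSS of CG18428, at 139 bp.

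The long body of eIF4EHP added 5 weaker IDR-thresholded summits, all in introns. The strongest of them, 9793 bp from the TSS, had a signal of 756, with 133, 400 and 223 in replicates 1, 2 and 3. The next, 2507 bp from the TSS, had a signal of 510, with 151, 186 and 193, and lies 690 bp from the TSS of Syx1A, the syntaxin of synaptic vesicle release, whose gene is nested in eIF4EHP. The remaining 3 ranged from 252 to 334, and one of them, 8069 bp from the TSS, was not among the top peaks of replicate 2. With 6 IDR-thresholded summits eIF4EHP belongs to the 4.76% of genes that have 4 or more, as does eIF4A with 4. eIF4EHP had 1.2 summits per 10 kb. That density is the lowest among the 7 genes with a peak, because the gene is 45884 bp long. None of its 6 summits had the eIF4EHP TSS as the nearest one of a protein-coding gene.

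**Figure D2:**
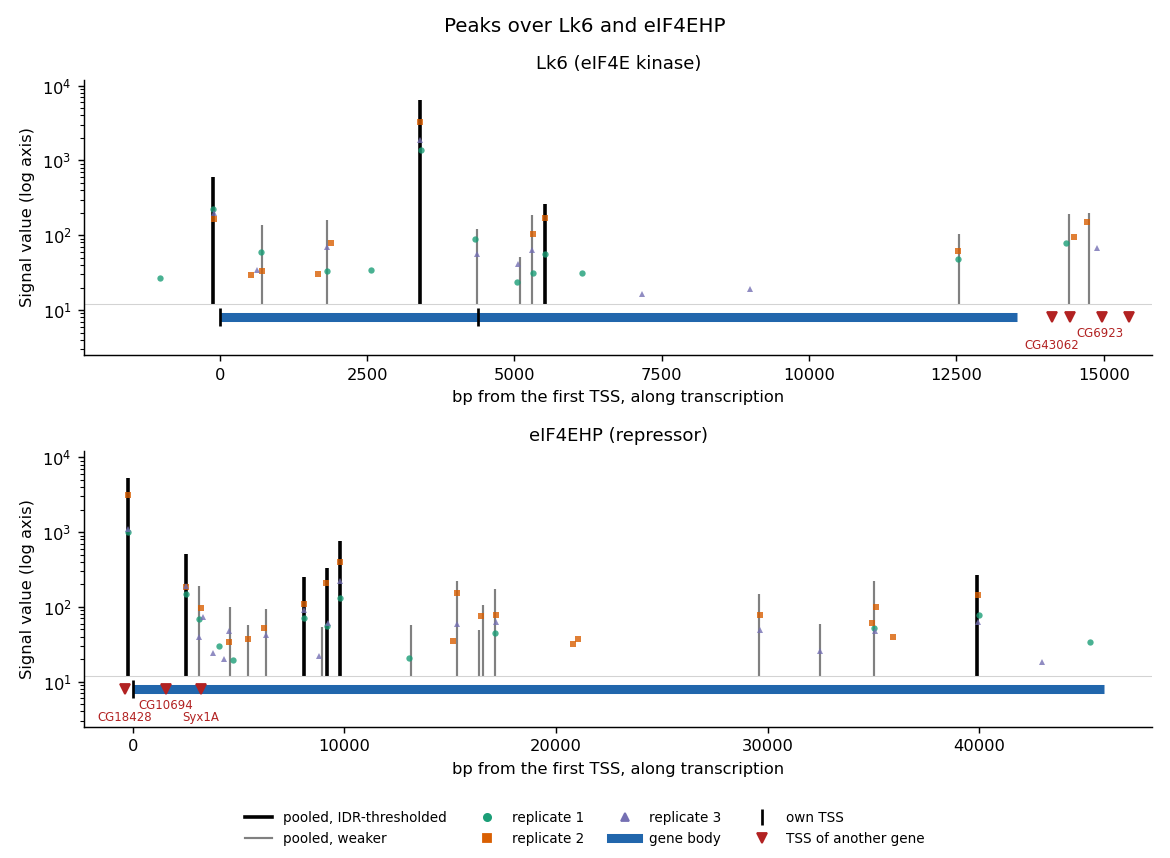
Signal value (log axis) of every peak against distance from the first TSS of Lk6 and of eIF4EHP, in bp along the direction of transcription; vertical lines are pooled peaks, points are replicate peaks, and the bar below is the gene body. In Lk6 the tallest line stands 3401 bp inside the gene, and in eIF4EHP it stands 237 bp before the TSS, between eIF4EHP and CG18428.

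By the 3 replicate signals of the strongest peak, the genes most like Lk6 were CG46395, Art3 and CG11808, and those most like eIF4EHP were msi, Atat and CG42507. Likeness was measured as the distance between the 3 log2 signals over all protein-coding genes. It was 0.10, 0.11 and 0.19 for the first 3 genes and 0.19, 0.29 and 0.38 for the others. Where several genes shared a pooled peak, only the first symbol in alphabetical order was kept, so the named gene need not be the nearest. Art3, a protein arginine methyltransferase, had signals of 1377, 3513 and 1899 in replicates 1, 2 and 3 at a summit 123 bp upstream of its TSS. The peak counted for CG46395 is nearest to the TSS of Fkbp14, and that of CG11808 nearest to mRpL41. msi, which encodes the RNA-binding protein Musashi, had signals of 944, 2846 and 1186 at a summit 241 bp upstream of its TSS, almost the distance seen at eIF4EHP. The peak counted for Atat is nearest to the TSS of aay, and that of CG42507 nearest to Trl.

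eIF6, the factor that holds large ribosomal subunits apart (FBgn0034915, chromosome 2R, 23849246 to 23850301, minus strand), had the next very strong site. Its summit 104 bp upstream of the TSS had a pooled signal of 3142, rank 120. The replicates gave 627, 1528 and 988, at ranks 100, 196 and 73, and their summits lay within 3 bp of each other. The TSS of an antisense RNA, asRNA:CR45928, is within 500 bp of the same summit. This summit also lies inside annotated transcripts of that RNA and of the protein-coding gene ytr, so it is not at eIF6 alone. A second summit 1063 bp upstream of eIF6, with a signal of 406, lies 116 bp from a TSS of ytr and also at the start of gbb, which encodes a BMP ligand. At that second site replicate 1 had a peak of signal 26.0 with its summit 2 bp away, which was not among its top peaks. Replicate 2 had 313, also 2 bp away, and replicate 3 had 63.6 at 134 bp.

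Among the activators eIF4E1, the main cap-binding protein (FBgn0015218, chromosome 3L, 9399618 to 9402460, minus strand), had its strongest summit outside the gene. This summit of signal 1025, rank 1325, lies 303 bp past the gene's end and 88 bp from the TSS of CG4080. The summit at the gene's own first TSS, 5 bp upstream, had a signal of 368, rank 5262, with 78.2, 223 and 77.3 in replicates 1, 2 and 3. The peak beside the CG4080 start was thus the higher one in the pooled list, and also in each replicate, with 271, 525 and 223.

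eIF4A, the RNA helicase (FBgn0001942, chromosome 2L, 5981764 to 5985909, plus strand), showed the same order. Its strongest summit, of signal 745 and rank 2144, lies 85 bp from the TSS of ifc, a sphingolipid desaturase gene, with 156, 312 and 268 in replicates 1, 2 and 3. Own TSSs had summits of 315 and 309, at 54 and 105 bp upstream of 2 of the 3 annotated starts. Neither of those 2 was a top peak in every replicate, since the first was missing from the top peaks of replicate 2 and the second from those of replicate 3. The fourth summit, of signal 250, lies 47 bp from a TSS of chic, the profilin gene, and had no match in replicate 2.

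pAbp, the poly(A)-binding protein (FBgn0265297, chromosome 2R, 18140078 to 18147191, plus strand), differed from both in having its strongest peaks at its own starts. The summit 486 bp downstream of the TSS at 18141375 had a signal of 679, rank 2445, with 191, 332 and 208 in replicates 1, 2 and 3. The summit 5 bp downstream of the TSS at 18140777 had a signal of 515, with 165, 218 and 159. Both were top peaks in all 3 replicates. The first annotated TSS, at 18140078, had no IDR-thresholded summit within 500 bp. The weakest summit, of signal 254, lies 9 bp from the TSS of EMRE, which encodes a subunit of the mitochondrial calcium uniporter.

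Thor, the 4E-BP repressor (FBgn0261560, chromosome 2L, 3478434 to 3479612, plus strand), had the lowest strongest peak of the 7 genes. Its summit 42 bp downstream of the first TSS had a signal of 339, rank 5743, with 136, 155 and 75.3 in replicates 1, 2 and 3. A second summit 962 bp upstream, in an exon of lncRNA:CR43928, had a signal of 294 and was not a top peak in replicate 1. In replicate 2 that upstream site, at 202, was higher than the TSS site, which shows that the order of these 2 sites was not fixed across replicates.

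**Figure D3:**
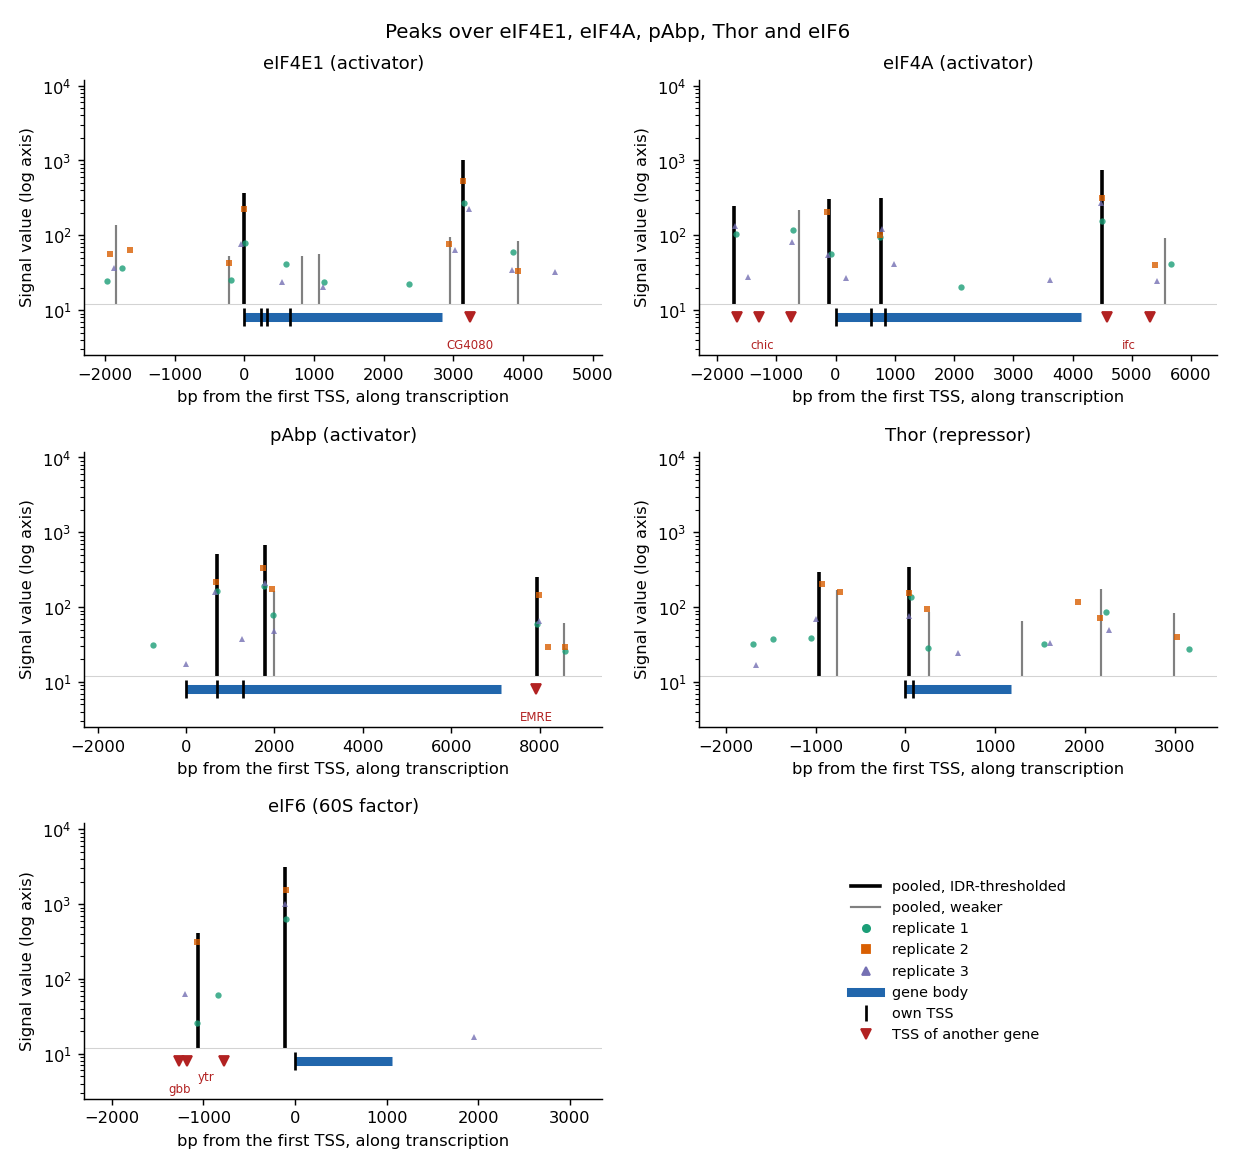
Signal value (log axis) of every peak against distance from the first TSS of eIF4E1, eIF4A, pAbp, Thor and eIF6, in bp along the direction of transcription, with symbols as in the plot of peaks over Lk6 and eIF4EHP. At eIF4E1 and eIF4A the tallest line stands past the end of the gene, at the TSS of CG4080 and of ifc, while pAbp, Thor and eIF6 have theirs within 500 bp of an own TSS.

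The 2 activators without a peak lie in parts of the genome with few or no peaks at all. eIF4G1, the scaffold (FBgn0023213, chromosome 4, 915297 to 930715), had its nearest pooled summit 29948 bp away, with a signal of 103. On chromosome 4, the small and largely heterochromatic arm, 22.5% of 80 protein-coding genes had an IDR-thresholded summit in the stretch searched, against 50.7% of all genes. eIF4B, a cofactor of the eIF4A helicase (FBgn0020660, chromosome 3L, 27842669 to 27858271), lies 252 kb from the centromere-side end of the assembled arm. The last pooled summit of 3L is at 22948609, and 39 protein-coding genes lie past it. The last summit of any list lay 1.83 Mb before eIF4B. Whether reads could be placed there was not tested, so the lack of a peak at eIF4B does not show that the protein was absent.

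Activators and repressors of translation showed no steady difference in the strength of their peaks. Peak strength was expressed as the percentile of a gene's strongest peak in its list, with 100 for the strongest peak and 0 for a gene without any. In the pooled list the median was 91.85 for the 5 activators (eIF4E1, eIF4G1, eIF4A, eIF4B, pAbp) and 90.39 for the 2 repressors (eIF4EHP, Thor), a difference of 1.47 points. For activators minus repressors the replicates gave -2.24, -1.89 and 5.39 points. The sign thus changed between replicates, whose differences had an SD of 4.31 (n = 3). The 2 repressors stood at 99.91 and 80.86, so their median lies between an exceptional and an ordinary gene.

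Where the search was kept to 500 bp around a gene's own TSSs, the activators ranked lower than the repressors in every list. The pooled medians were 79.19 for the activators and 90.39 for the repressors, a difference of -11.2 points. In replicates 1, 2 and 3 the differences were -13.94, -6.31 and -10.43 points. This search leaves out the strongest peaks of eIF4E1 and eIF4A, which lie at CG4080 and ifc. It keeps the strongest peak of the repressor eIF4EHP, although that summit is nearer to the TSS of CG18428, at 139 bp, than to its own, at 237 bp. With 2 repressors, 2 activators without any peak and genes picked for their peaks, these differences are a description of these genes.

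The 22 summits were mostly at starts of genes, but not always of the gene in question. Promoters, meaning positions within 500 bp of any TSS, held 14 of them, or 63.6%, against 49.4% of all IDR-thresholded summits. Introns held 7, or 31.8%, against 33.0%, and 1 was in an exon of a noncoding RNA. Of the 22 summits 9 were within 500 bp of a TSS of the gene they were counted for, and 5 only within 500 bp of the TSS of another protein-coding gene. The nearest TSS was the gene's own for 11. Of the 22 peaks 21 had a peak with its summit within 250 bp in every replicate, and the median range of the strongest such summits was 34 bp, against 49 bp over all 8200 such peaks and 13 bp over the 100 strongest.

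The edge of the search mattered for strong sites as well as weak ones. The strongest summits of eIF4EHP and eIF6 lie 237 and 104 bp outside the gene body, so a search of gene bodies alone loses them. With 5000 bp beyond the gene, activators minus repressors turned from 1.47 to -4.39 points. Just inside it lay a pooled peak of signal 136 at 1848 bp from eIF4E1, one of 82.2 at 1813 bp from Thor and the chic peak of 250 at 1710 bp from eIF4A. Just outside lay an IDR-thresholded peak of signal 245 at 2299 bp from eIF4E1, a pooled peak of 65.3 at 2024 bp from Thor and one of 160 at 2647 bp from eIF4A. Of the nearest pooled peaks outside, 1 per gene, the strongest were one of 916 at 3794 bp from eIF4EHP, nearest to CG13605, and one of 1668 at 4380 bp from eIF6, at Snap29. Peaks beyond the nearest one were not listed.

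A+T content varied widely from site to site. Within 50 bp of the summit it was 83.2% at the eIF4EHP promoter, an excess of 35.6 percentage points over the windows 500 bp to each side. The eIF6 summit had an excess of 26.2 points, at 64.4% A+T in GC-rich surroundings of 38.1%. The Lk6 intron had an excess of 11.4 points, at 69.3%, below the mean of 19.4 over the 100 strongest summits. The CG4080 start beside eIF4E1 had 21.3 points. Own promoters of activators and of Thor had little or none, with -10.4 at eIF4E1, -3.5 and 1.5 at eIF4A, 4.0 and -1.5 at pAbp and -5.0 at Thor. Over the 22 summits the excess averaged 6.5 ± 14 points (SD over summits, which are not independent), against 12.7 over all 8522, and 15 of the 22 were above 0, against 85.1% of all.

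**Figure D4:**
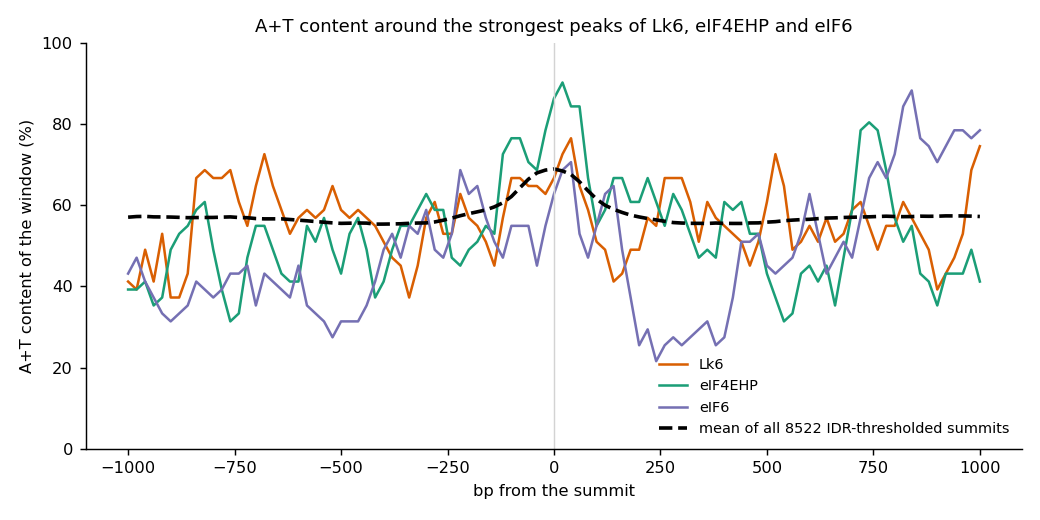
A+T content in percent of 51-bp windows against distance in bp from the summit, along the plus strand, for the strongest peaks of Lk6, eIF4EHP and eIF6 and as the mean of all 8522 IDR-thresholded summits. The eIF4EHP line is at 86.27% at the summit, where the mean of all summits is at 68.9%, and the eIF6 line stands in a GC-rich stretch.

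No motif was common to the 3 strongest sites. Within 150 bp of the summit the Lk6 intron held 5 GAGAG matches, some overlapping, and no match to the other 5 motifs. eIF4EHP held 2 TATAAA and 1 CGATA, and eIF6 held 1 TATCGATA, 2 TATAAA and 4 CGATA. TATCGATA was found at 4 of the 22 summits, or 18.2%, against 7.05% of all IDR-thresholded summits and 9.37% of promoters of protein-coding genes, taken from 250 bp before to 50 bp after the TSS. These 4 were the CG4080, ifc and eIF4A promoters and eIF6. GAGAG was found at 7 of 22, or 31.8%, against 30.1% of all summits and 29.8% of promoters. Of the 100 strongest summits 47.0% had GAGAG and 4.0% had TATCGATA. CGATA was at 54.5% of the 22, against 39.8% of all summits and 47.5% of promoters. TATAAA was at 63.6%, against 49.7% and 45.9%. GGTCACACT and CATCNCTA were at 1 and 2 of the 22, against 4.15% and 6.29% of all summits. Any of the 6 was found at 19 of 22, against 82.0% of all summits and 83.9% of promoters. Most windows of this length thus hold at least 1 of the 6. No single motif was in most windows of all summits or of promoters.

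**Figure D5:**
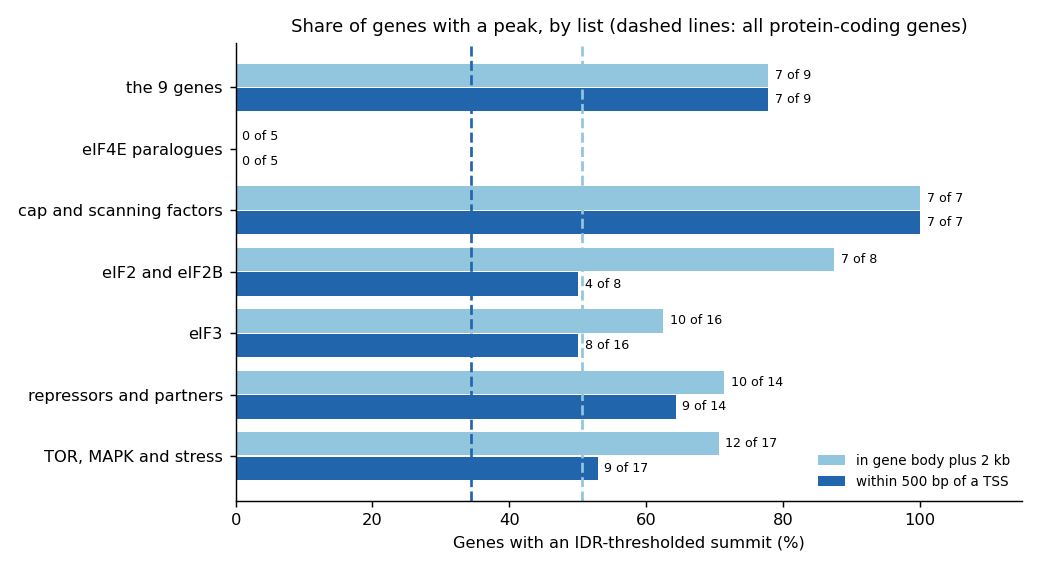
Percent of genes with an IDR-thresholded summit in the gene body plus 2 kb (light bars) and within 500 bp of a TSS (dark bars) for the 9 genes and 6 lists of related genes, with the number of genes beside each bar; dashed lines give all protein-coding genes, at 50.7% and 34.4%. The other cap and scanning factors are at 7 of 7 and the eIF4E paralogues at 0 of 5.

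Other genes of translation control were counted in 6 lists of 67 genes in all. Of these 37, or 55.2%, had an IDR-thresholded summit within 500 bp of a TSS, against 34.4% of all genes. That 34.4% is also the share to set beside each list that follows. The top peaks of replicates 1, 2 and 3 gave 38, 33 and 40 of the 67, against 4918, 4575 and 4926 of all 13945 genes. Such a summit can lie nearer to a neighbour's TSS. This held for the strongest peaks of eIF1A (Vps39), eIF5 (CG46312), eIF2gamma (Su(var)3-9) and eIF2Bepsilon (Ocrl). It also held for those of eIF3a (CG1074), eIF3l (Nrx-IV), nanos (CG11779) and Rheb (CG2931), among others. The paralogues of eIF4E1 had none. eIF4E3, eIF4E4, eIF4E5, eIF4E6 and eIF4E7 had 0 of 5, and eIF4E6 alone had a pooled peak, with a signal of 137. The remaining cap and scanning factors, eIF4G2, eIF4H1, eIF1, eIF1A, eIF5, eIF5B and mxt, had a summit near a TSS in 7 of 7 cases. The strongest peaks were those of eIF1, which guards start codon choice (1482), eIF5B, which joins the subunits (1184), and eIF4G2 (596). Those of eIF1 and eIF4G2 lie nearer to the TSSs of RpL28 and CG34355, and that of eIF5B is in an intron, far from its own TSS.

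Of the subunits of eIF2, which brings the initiator tRNA, and of its exchange factor eIF2B, 4 of 8 had a summit at a TSS, namely eIF2beta, eIF2gamma, eIF2Bdelta and eIF2Bepsilon. The strongest peak within reach of eIF2Bbeta, of signal 6589, is nearest to the TSS of Ugalt, and that of eIF2beta, of 1922, nearest to Gcn5. Next came eIF2Bgamma with 445, nearest to CG8187. For all 3 the start that lay nearest was a neighbour's. Among the subunits of eIF3, which gathers other factors on the small ribosomal subunit, 8 of 16 had a summit at a TSS, namely eIF3a, eIF3c, eIF3d1, eIF3e, eIF3h, eIF3k, eIF3l and eIF3m. The strongest were counted for eIF3d1 (1674, nearest to GILT2), eIF3c (1374, 58 bp from its TSS) and eIF3h (957, 303 bp from its TSS).

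Repressors of translation and their partners had a summit at a TSS in 9 of 14 cases. larp, which encodes a La-related protein that binds poly(A)-binding protein, had a signal of 4387, rank 46, at 328 bp from its TSS. brat, which recruits eIF4EHP to hunchback mRNA, had 2481 in an intron at 727 bp from a TSS, and 523 at a TSS. tral had 1314, nearest to sti. bcd, whose protein recruits eIF4EHP to caudal mRNA, had 568 at 189 bp from its TSS, and pum and nanos, partners of brat, had 513 and 581 at a TSS. cup, an eIF4E-binding repressor in the oocyte, had its strongest summit of 700 at CG34310 and none at its own TSSs. 4E-T, me31B and Gyf had no pooled peak, and bru1 had one of signal 148. 4E-T and Gyf are on chromosome 4, as eIF4G1 is. The remaining members with a summit at a TSS were smg, Paip2 and Pdcd4.

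In the TOR, MAPK and stress pathways, which act on Thor, Lk6 and eIF2, a TSS with a summit was found in 9 of 17 genes. REPTOR, a transcription factor held back by TOR, had 3085, rank 128, at 147 bp from its TSS. The stress kinase p38a had 2870, rank 149, at 127 bp, and p38b had 1306, nearest to CG9008. foxo, which encodes a transcription factor that acts on Thor, had 1167 at 384 bp. mTor had 1191 at 227 bp, nearest to Vha68-1, and S6k, Rheb, Akt and crc were the other 4. The kinase genes rl, the fly ERK, and Dsor1, its activator, had no summit at a TSS. raptor, Pdk1 and PEK had none either, and neither did Tsc1, gig and Gcn2. Strong peaks were thus counted for genes that promote translation and for genes that repress it. The strongest peaks of eIF2Bbeta, eIF2beta, eIF3d1, eIF1 and mTor, which promote translation, lie nearest to a neighbour's TSS. Among repressors this holds for tral, while the strongest peaks of larp and brat lie nearest to their own TSSs, as that of eIF3c does.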

How the data were processed

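The data were 5 lists of peaks on dm6 from 3 replicates. Per the deposited file lists, the authors called peaks on each replicate against 1 shared control, on the 3 replicates pooled, and kept a list by IDR. Which aligner, caller and IDR cut-off were used is not stated there. Signal values, as deposited, are peak strength in the authors' scaling. Lists were compared by rank, and signals themselves gave shares of a sum, multiples of a list's median and log2 distances, and the deposited offsets gave summit positions. Genes came from Ensembl release 115 and sequence from the Release 6 assembly, and no peak ran past an arm's end. The 22 mitochondrial peaks of replicate 1 were left out of ranks. A replicate's top peaks are its 8522 strongest on the arms. A peak was matched to the strongest peak of a replicate with its summit within 250 bp, which at 2 of the 22 took a neighbouring peak in 1 replicate. The 2 symbols nos and Tor were matched to nanos and mTor by synonym.

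The 9 genes and the lists of related genes were chosen with earlier results of these data known, so no test was run. The main counts stand beside those of all protein-coding genes. All 9 genes are described. Others are named by a rule: the 3 genes most alike in the 3 log2 signals, and in each list the genes bound and the 3 strongest. Genes without a peak and neighbours were added after their values were seen. Counting was tested on simulated peaks. Python 3.11.15, pandas 2.3.3 and numpy 2.4.6 were used.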

Additional observations from a re-analysis of the deposited data

How the results depend on the processing

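The count of genes with an IDR-thresholded summit in the stretch searched lay between 5 and 7 of 9 in every alternative run, and stayed at 7 without any 1 replicate. At an own TSS the count was 7 but fell to 4 within 100 bp, which loses Lk6, eIF4EHP and eIF6, and to 4 in the stronger 50% of peaks, which keeps Lk6, eIF4EHP, eIF6 and pAbp. Leaving out 1 replicate gave 6 to 7. For all protein-coding genes, TSS counts within 100 bp, in the stronger 50% of peaks or without 1 replicate were not made. The falls to 4 therefore have no share of all genes to stand beside. The 22 summits became 11 in gene bodies alone and 9 where peaks of all 3 replicates had to share 50% of both intervals, and 17 to 19 without 1 replicate.

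Activators minus repressors was 1.47 points and turned to -2.24 in replicate 1 and -1.89 in replicate 2, to -7.75 with eIF6 among the repressors, to -11.2 within 500 bp of an own TSS and to -4.39 with 5000 bp beyond the gene. It ranged from -2.07 to 2.54 without 1 replicate, and was -2.07 without replicate 3. Leaving out genes with no peak, chosen after seeing the data, gave 2.47. The cause of these changes was not tested, apart from the neighbours' peaks named above. The A+T excess of 6.5 points was 4.0 with flanks 1000 bp away, 13.0, 14.4 and 10.5 at the strongest peak of each gene in replicates 1, 2 and 3, and 5.0 to 8.5 without 1 replicate. Motif counts were 13 within 50 bp and 21 within 250 bp, against 19.

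No paired analysis was possible because the samples form 1 group. Depth is unknown, so a missing peak is not shown to be missing binding.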
